A study of Mus musculus with 24 samples.

Results

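The principal cell of the renal collecting duct takes up water and sodium under hormonal control, and 10 of its transcripts were followed in mouse kidney: the water channels Aqp2, Aqp3 and Aqp4, the vasopressin receptor Avpr2, the sodium channel subunits Scnn1a, Scnn1b and Scnn1g, the pump regulator Fxyd4, the enzyme Hsd11b2 and the mineralocorticoid receptor Nr3c2. They were taken by symbol from an expression table of 28450 features, which held all 10. Kidneys came from C57BL/6 mice in 4 groups of 6 libraries: Nlrp3 knockout given glyoxylate (Gly), wild type given Gly, Nlrp3 knockout given saline, and wild type given saline. Gly is named glyoxylate acid, and the knockout NLPR3-/-, in the labels; Gly was injected into the peritoneum at 75 mg/kg per day in 200 µl, daily through day 7, and the kidneys were collected after those 7 days. Glyoxylate is a precursor of oxalate, and this treatment is used to form calcium oxalate crystals in the mouse kidney. The knockout is described as genotype alone, so neither the type of allele nor any restriction to a cell type is known here. The values are FPKM, fragments scaled to transcript length and to the mapped fragments of the library, and the sequencing depth behind them is unknown.

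Vasopressin acts on the V2 receptor, encoded by Avpr2, on the basolateral side of the principal cell and raises cyclic AMP, which moves the water channel Aqp2 into the apical membrane and increases its transcription. Water leaves the cell through Aqp3 and Aqp4 on the basolateral side. Sodium enters through the epithelial sodium channel, ENaC, built from an alpha subunit (Scnn1a), a beta subunit (Scnn1b) and a gamma subunit (Scnn1g), and aldosterone raises ENaC activity through the mineralocorticoid receptor, while Hsd11b2 inactivates glucocorticoids that would otherwise occupy that receptor.

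The libraries were not alike apart from their labels. Nlrp3 itself lay at 0.119 to 0.144 FPKM in Gly knockout libraries and at 0.361 to 0.896 FPKM in Gly wild-type libraries, and at 0 to 0.182 FPKM in saline knockout libraries and 0.0397 to 0.0886 FPKM in saline wild-type libraries. It separates the genotypes under Gly but is near 0 in both genotypes under saline, where it therefore checks no label. Saline knockout libraries 1, 2, 3, 5 and 6 had a summed level of 4 Y-linked genes of at most 0.0852 FPKM, while library 4 had 33.1 and the other groups 27.1 to 48.7 FPKM; the labels give no sex, and this difference cannot be told apart from genotype between the saline groups, nor from Gly between the knockout groups. Wild-type Gly libraries 1 and 5 had the lowest of the 24 quality weights that limma estimated, 0.0767 and 0.161. The log2 difference between Gly and saline in wild type had a median of 0.26 over all tested features. Some results are therefore also given after median-ratio scaling, which divides each library by its median ratio to the geometric mean library. Others, among them the differences of the genes named from lists, are given as deposited alone. Of 5 adrenal genes, which a kidney sample could carry, 4 never exceeded 1 FPKM and their sum reached at most 1.25 FPKM. All 7 further principal cell markers passed the expression filter, with summed levels of 101 to 147, 75.4 to 136, 90.3 to 157 and 96.8 to 108 FPKM in Gly knockout, Gly wild-type, saline knockout and saline wild-type libraries.

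**Figure D1:**
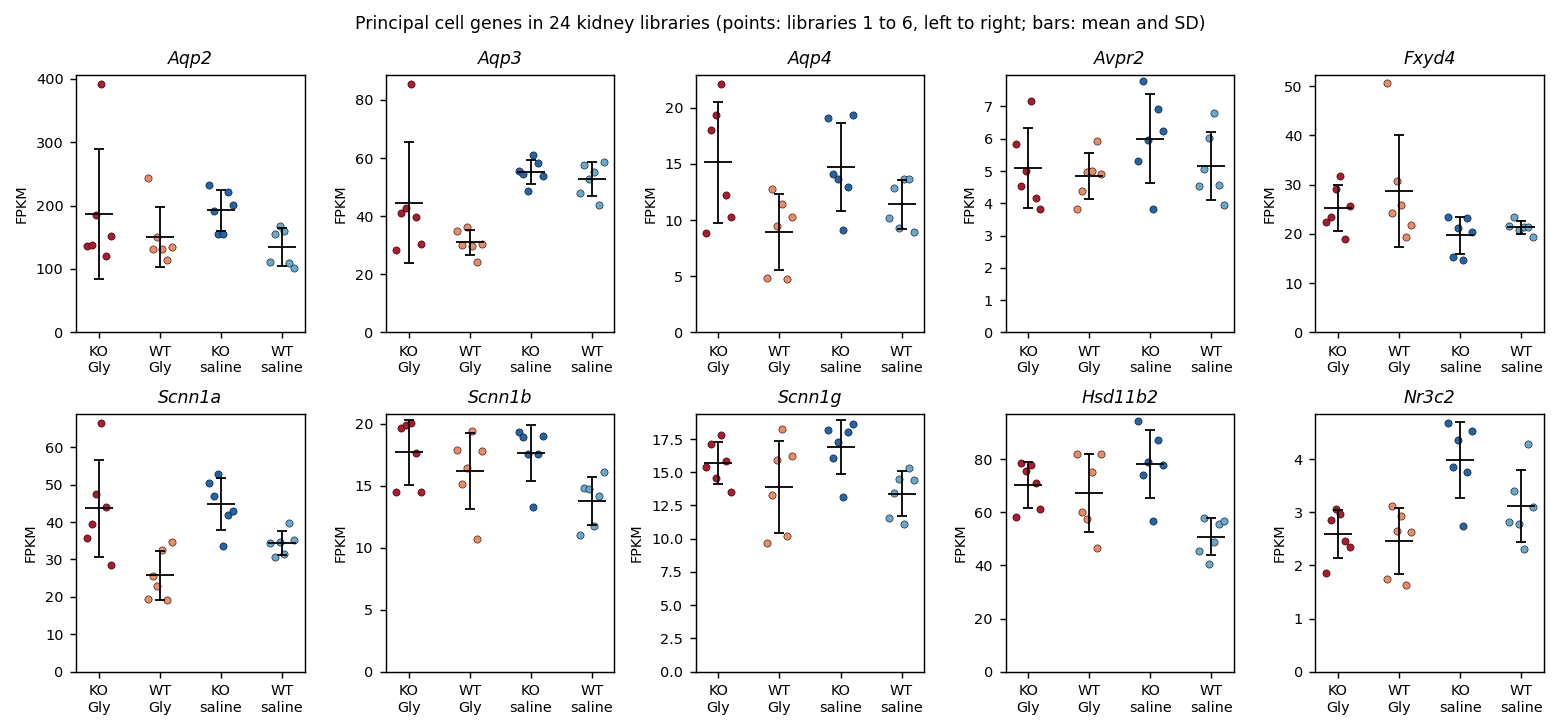
FPKM of the 10 transcripts in each of 24 libraries, by group (Nlrp3 knockout with Gly, wild type with Gly, knockout with saline, wild type with saline); points are libraries and bars are the mean and SD. Aqp3 in the 6 wild-type Gly libraries, at 24.2 to 36.3 FPKM, lies below all 6 saline wild-type libraries, at 43.7 to 58.7 FPKM, and Aqp2 shows a single high knockout Gly library at 391 FPKM.

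Levels per transcript length differed widely among the members. The median FPKM over 24 libraries was 153 for Aqp2, 66.1 for Hsd11b2, 45.9 for Aqp3, 35.0 for Scnn1a, 22.2 for Fxyd4, 17.0 for Scnn1b, 15.3 for Scnn1g, 12.5 for Aqp4 and 2.89 for Nr3c2, with Avpr2 between the last 2 of these. In saline wild-type libraries, Hsd11b2 (40.5 to 57.7 FPKM) overlapped Aqp3 (43.7 to 58.7 FPKM), the overlapping ranges of Scnn1b, Scnn1g and Aqp4 lay within 8.91 to 16.1 FPKM, and those of Avpr2 and Nr3c2 within 2.30 to 6.79 FPKM. Aqp2, Scnn1a and Fxyd4 stood clear of their neighbours in that group. The alpha subunit was thus the most abundant of the 3 ENaC transcripts, and the receptors Avpr2 and Nr3c2 the least abundant members.

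Gly in wild-type kidneys went with a lower Aqp3 and Scnn1a and a higher Hsd11b2, while Aqp2, Avpr2 and Fxyd4 were not called in either direction. By limma, 3 of 10 members had an adjusted p under 0.05, against 63.5% of the 13020 tested features (50.2% higher and 13.3% lower); 1 member was higher and 2 were lower. The median log2 difference of the members was -0.02, beside 0.26 over all features, and after scaling it was -0.30, beside 0.00, with 5 members lower and none higher. Over all features the scaled calls were 3802 higher and 3652 lower, against 6537 higher and 1728 lower as deposited. The calls for Aqp3 and Scnn1a were made on both scales, whereas the Hsd11b2 call was lost after scaling and Aqp4, Scnn1g and Nr3c2 were called lower only there. In RNA from bulk kidney, fewer principal cells and less RNA per cell cannot be told apart. Any part of these transcripts from cells other than principal cells was not tested.

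Aqp3 (ENSMUSG00000028435), the basolateral water and glycerol channel, showed the clearest separation among the members. The share of all tested features whose libraries separate in this way is not given here. Since 63.5% of tested features were called in this comparison, the separation is not shown to be unusual among them. It had 24.2, 30.2 and 36.3 FPKM as the lowest, median and highest Gly wild-type libraries, against 43.7, 54.0 and 58.7 FPKM in saline wild-type libraries, and the ranges did not meet. The mean was 31.0 ± 4.29 FPKM in Gly wild-type and 52.7 ± 5.79 FPKM in saline wild-type libraries (SD, n = 6 each). The log2 difference was -0.75 ± 0.17 (SE), adjusted p = 0.000396 by limma, and -1.06 with adjusted p = 6.76e-06 after scaling. Leaving out any single library kept the call in all 24 refits, with differences from -0.80 to -0.69.

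Aqp2 (ENSMUSG00000023013), the apical vasopressin-regulated channel, spread too widely to be called. Its lowest, median and highest FPKM were 113, 133 and 244 in Gly wild-type and 101, 134 and 168 in saline wild-type libraries, and 1 Gly library was above every saline library while the other 5 overlapped them. The log2 difference was 0.15, with a 95% interval from -0.31 to 0.61 and adjusted p = 0.57 by limma. The ratio of Aqp3 to Aqp2 within a library, chosen after the values were seen and given without a test, was 0.143 to 0.242 in Gly wild-type and 0.314 to 0.582 in saline wild-type libraries, so that all 6 Gly libraries lay below all 6 saline libraries. In saline knockout libraries the ratio was 0.239 to 0.394, and in Gly knockout libraries 0.201 to 0.329.

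The promoters of these channels, 250 bases before to 50 after the start of transcription, are shown because Aqp2 transcription is known to respond to cyclic AMP and Aqp3 was the member whose Gly and saline wild-type libraries did not overlap. Both come from the RefSeq table for GRCm38.p6, in which 7 of the 10 members matched; the others are Aqp4, Scnn1a and Hsd11b2. Aqp2 lies at chr15:99578806-99579105 on the plus strand and Aqp3 at chr4:41098134-41098433 on the minus strand, and capitals mark the motif matches.
Aqp2: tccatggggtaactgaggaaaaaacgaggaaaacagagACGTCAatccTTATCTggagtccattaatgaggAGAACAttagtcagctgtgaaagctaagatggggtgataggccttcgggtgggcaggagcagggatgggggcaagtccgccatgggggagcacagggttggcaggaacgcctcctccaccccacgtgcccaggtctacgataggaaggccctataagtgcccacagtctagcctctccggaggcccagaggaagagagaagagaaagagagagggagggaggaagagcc
Aqp3: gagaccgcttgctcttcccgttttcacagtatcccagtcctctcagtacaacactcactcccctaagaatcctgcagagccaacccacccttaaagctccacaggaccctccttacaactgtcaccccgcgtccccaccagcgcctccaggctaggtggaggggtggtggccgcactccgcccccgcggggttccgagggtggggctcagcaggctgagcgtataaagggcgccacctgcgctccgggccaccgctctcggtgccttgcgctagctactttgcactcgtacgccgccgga
The motifs, chosen after the promoters were seen, were searched on both strands and do not overlap each other in these windows. The motif TGACGT, which reads as ACGTCA on the other strand and is related to cyclic AMP response elements, is held by Aqp2 alone of the 7 matched promoters, 212 bases before the start, and by 7.51% of 32851 promoters of that length. The motif AGATAA, which reads as TTATCT on the other strand and is of the kind bound by GATA factors, is held by Aqp2 202 bases before the start and by 11.2% of promoters. The motif AGAACA, which reads as TGTTCT on the other strand and is one arm of a steroid receptor site, is held by Aqp2 179 bases before the start, by Avpr2 59 and 50 bases before it, and by 19% of promoters. Aqp3 holds none of the 3 in this window.

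Aqp4 (ENSMUSG00000024411), the other basolateral channel, had 4.75, 9.86 and 12.8 FPKM as lowest, median and highest Gly wild-type libraries and 8.91, 11.5 and 13.6 FPKM in saline wild-type libraries. Libraries 1 and 5 of the Gly group, at 4.86 and 4.75 FPKM, were below every saline library, and the other 4 overlapped them. The log2 difference was -0.39 (adjusted p = 0.15 by limma); it was -0.68 after scaling, with adjusted p = 0.0074, and -0.04 without libraries 1 and 5 (adjusted p = 0.88). Avpr2 (ENSMUSG00000031390) had 3.82 to 5.94 FPKM in Gly wild-type and 3.95 to 6.79 FPKM in saline wild-type libraries, with a log2 difference of -0.07 and a 95% interval from -0.36 to 0.22. Fxyd4 (ENSMUSG00000004988), which modulates the sodium-potassium pump, had 19.4 to 50.5 FPKM in Gly wild-type and 19.4 to 23.4 FPKM in saline wild-type libraries, with a log2 difference of 0.34 (adjusted p = 0.074), which was 0.17 without Gly wild-type library 1 (adjusted p = 0.25) and 0.44 without library 5 (adjusted p = 0.024).

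Of the ENaC subunits, Scnn1a was the 1 called as deposited after Gly in wild type; after scaling Scnn1a and Scnn1g were both called lower, and differences between subunits were not tested. Scnn1a (ENSMUSG00000030340) had 19.2, 24.3 and 34.8 FPKM as lowest, median and highest Gly wild-type libraries and 30.6, 34.5 and 39.7 FPKM in saline wild-type libraries; 4 of the 6 Gly libraries were below every saline library. Its mean was 25.8 ± 6.60 FPKM in Gly wild-type and 34.3 ± 3.20 FPKM in saline wild-type libraries (SD, n = 6 each), a log2 difference of -0.43 ± 0.16 (SE), adjusted p = 0.022 by limma. That call was lost without Gly wild-type library 1 or 5 or saline wild-type library 5, with adjusted p of 0.051 to 0.060, and without both Gly libraries together the difference was -0.25 with adjusted p = 0.18. After scaling it was -0.74 with all libraries and -0.63 without those 2, with adjusted p = 0.000121 and 0.0015. Scnn1b (ENSMUSG00000030873) had 10.7, 17.1 and 19.4 FPKM in Gly wild-type and 11.1, 14.4 and 16.1 FPKM in saline wild-type libraries as lowest, median and highest. Of the Gly libraries, 4 were above every saline library and 1 was below, and the log2 difference was 0.21 (adjusted p = 0.145). Scnn1g (ENSMUSG00000000216) had 9.68, 14.6 and 18.2 FPKM in Gly wild-type and 11.1, 13.9 and 15.3 FPKM in saline wild-type libraries, with a log2 difference of 0.03 (adjusted p = 0.87), which turned to -0.27 with adjusted p = 0.035 after scaling.

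Within a library the alpha subunit stood lower against the other 2 subunits after Gly in wild type. The Scnn1a to Scnn1b ratio was 1.09 to 1.96 in Gly wild-type libraries, with a median of 1.69. All 6 lay below the 6 saline wild-type libraries, at 2.07 to 3.11, and below the 6 Gly knockout libraries, at 1.97 to 3.33, which overlapped saline knockout libraries at 2.27 to 3.01. The Scnn1a to Scnn1g ratio was 1.45 to 2.14 in Gly wild-type and 2.28 to 2.98 in saline wild-type libraries, again without overlap, and 2.11 to 3.74 in Gly knockout libraries, which overlapped the Gly wild-type ones with 5 of 6 above all of them. Ratios of this kind need no scaling between libraries; they were chosen after the values were seen and were not tested, and a ratio shows unequal levels, not which subunit changed.

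**Figure D2:**
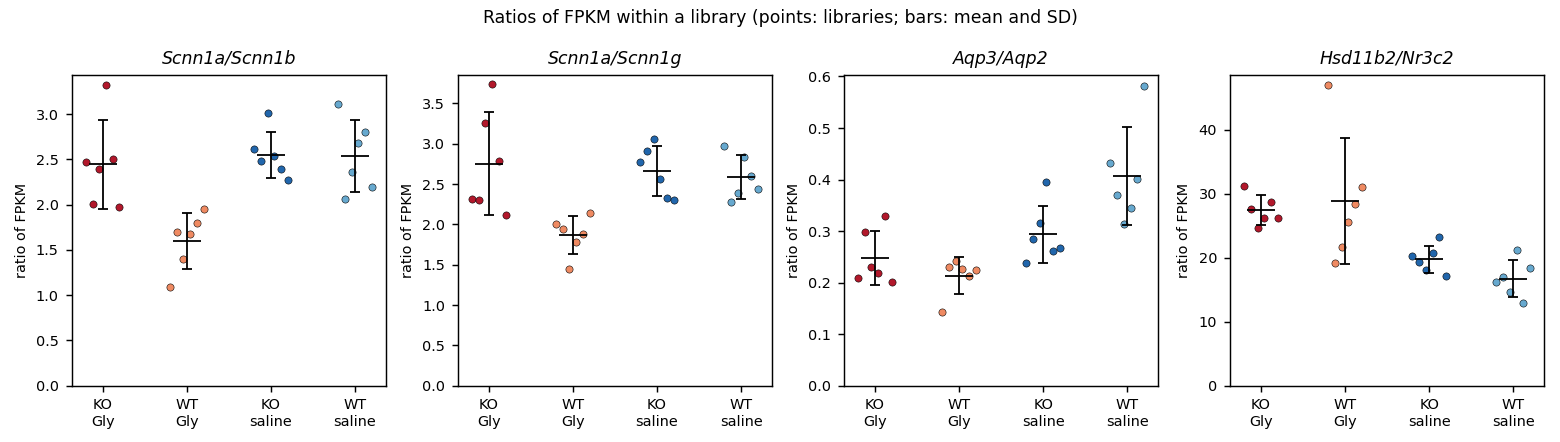
Ratios of FPKM within each library for Scnn1a to Scnn1b, Scnn1a to Scnn1g, Aqp3 to Aqp2 and Hsd11b2 to Nr3c2, by group with knockout before wild type; points are libraries and bars are the mean and SD. The 6 wild-type Gly libraries lie below all saline wild-type libraries in the first 3 panels. The ratios of Scnn1b to Scnn1g, Aqp4 to Aqp2 and Aqp4 to Aqp3, which are not shown, overlapped between these groups.

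Hsd11b2 (ENSMUSG00000031891) is the enzyme that protects the mineralocorticoid receptor from glucocorticoids. Nr3c2 (ENSMUSG00000031618) is that receptor, and each of the genes was called on 1 scale alone after Gly in wild type, and the difference between them was not tested. Hsd11b2 had 46.4, 67.6 and 81.9 FPKM as lowest, median and highest Gly wild-type libraries and 40.5, 52.2 and 57.7 FPKM in saline wild-type libraries, with 4 Gly libraries above every saline library. Its mean was 67.1 ± 14.6 FPKM in Gly wild-type and 50.8 ± 7.00 FPKM in saline wild-type libraries (SD, n = 6 each), a log2 difference of 0.38 ± 0.14 (SE), adjusted p = 0.018 by limma. The call was lost without Gly wild-type library 6 or saline wild-type library 3, and the difference was 0.07 with adjusted p = 0.65 after scaling. Nr3c2 had 1.63, 2.64 and 3.12 FPKM in Gly wild-type and 2.30, 2.96 and 4.29 FPKM in saline wild-type libraries, with a log2 difference of -0.26 (adjusted p = 0.087), and -0.49 with adjusted p = 0.000378 after scaling. The ratio of Hsd11b2 to Nr3c2 within a library had a median of 26.9 in Gly knockout, 27.0 in Gly wild-type, 19.7 in saline knockout and 16.5 in saline wild-type libraries.

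Under Gly, knockout kidneys had higher Scnn1a and Aqp4 than wild-type kidneys, and no member was called lower. By limma 2 of 10 members were called, both higher, against 29.8% of tested features called (8.37% higher and 21.4% lower). The members' median log2 difference was 0.16, beside -0.06 over all features. After scaling Aqp3 joined the called members. Scaling moved the calls over all features to 1738 higher and 1991 lower, against 1090 higher and 2792 lower as deposited.

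Scnn1a had 28.6, 41.7 and 66.6 FPKM as lowest, median and highest Gly knockout libraries, against 19.2, 24.3 and 34.8 FPKM in Gly wild-type libraries. Of the 6 knockout libraries, 5 were above every wild-type library. The mean was 43.6 ± 13.0 FPKM in Gly knockout and 25.8 ± 6.60 FPKM in Gly wild-type libraries (SD, n = 6 each), a log2 difference of 0.73 ± 0.16 (SE), adjusted p = 0.00167 by limma. All 24 refits without 1 library kept the call, with differences from 0.60 to 0.84, and without Gly wild-type libraries 1 and 5 the difference was 0.55 (adjusted p = 0.013). Scnn1b and Scnn1g were not called in this comparison, with log2 differences of 0.13 and 0.19.

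Aqp4 had 8.88, 15.1 and 22.1 FPKM as lowest, median and highest Gly knockout libraries, against 4.75, 9.86 and 12.8 FPKM in Gly wild-type libraries, and 3 knockout libraries were above every wild-type library. The log2 difference was 0.71 ± 0.23 (SE), adjusted p = 0.023 by limma, but the call was lost without Gly wild-type library 1 or 5 or Gly knockout library 2, 3 or 4, and without both Gly wild-type libraries the difference was 0.37 (adjusted p = 0.18). Aqp3 had 28.4, 40.4 and 85.7 FPKM in Gly knockout and 24.2, 30.2 and 36.3 FPKM in Gly wild-type libraries, with a log2 difference of 0.43 (adjusted p = 0.056) and 0.49 after scaling (adjusted p = 0.028). Gly knockout library 4 held the highest Aqp3 and the highest Aqp2, at 391 FPKM; without it the Aqp3 difference was 0.22 (adjusted p = 0.14). That library also had the lowest summed level of proximal tubule markers in its group, 4486 FPKM. It had the highest of the 11 inner medulla, papilla and thin limb markers, 842 FPKM. Aqp1 is in both lists, and the 7 aquaporins outside the members, Aqp1 among them, summed to 628 FPKM in that library. The part of these shifts in the Aqp2 and Aqp3 values was not tested. Aqp2 had 121, 145 and 391 FPKM in Gly knockout and 113, 133 and 244 FPKM in Gly wild-type libraries, with a log2 difference of 0.22 and a 95% interval from -0.24 to 0.69. Hsd11b2 (0.09), Nr3c2 (0.07), Avpr2 (0.05) and Fxyd4 (-0.13) had log2 differences within 0.13 of 0, and their 95% intervals reached at most 0.47 from 0.

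Markers of other cells and the make-up of the libraries differed in the same comparisons. The summed FPKM of 9 macrophage markers was 151 to 453 in Gly knockout, 284 to 800 in Gly wild-type, 42.0 to 83.1 in saline knockout and 37.4 to 63.6 in saline wild-type libraries. That of 7 fibroblast markers was 89.7 to 249, 140 to 306, 35.0 to 45.3 and 29.2 to 35.3 FPKM in the same groups. Proximal tubule markers summed to 4486 to 17674 FPKM in Gly knockout, 5743 to 10858 in Gly wild-type, 12766 to 27063 in saline knockout and 23740 to 28270 in saline wild-type libraries. Most of the saline sums came from 1 gene, Kap; without it the other 11 summed to 3536 to 5399 FPKM in Gly knockout, 2141 to 3329 in Gly wild-type, 5647 to 7211 in saline knockout and 5645 to 6867 in saline wild-type libraries. Of the 12 markers, 8 were called higher and none lower in Gly knockout against Gly wild type. Mitochondrial transcripts took 21.8% to 24.7% of FPKM in Gly knockout, 13.5% to 22.97% in Gly wild-type, 28.6% to 32.7% in saline knockout and 26.9% to 34.3% in saline wild-type libraries, and ribosomal protein transcripts 3.86% to 4.97%, 5.12% to 9.49%, 2.67% to 3.20% and 2.48% to 2.91%. Gly wild-type library 1 held both the lowest mitochondrial and the highest ribosomal protein share. The part of these shifts in the members' values was not tested.

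**Figure D3:**
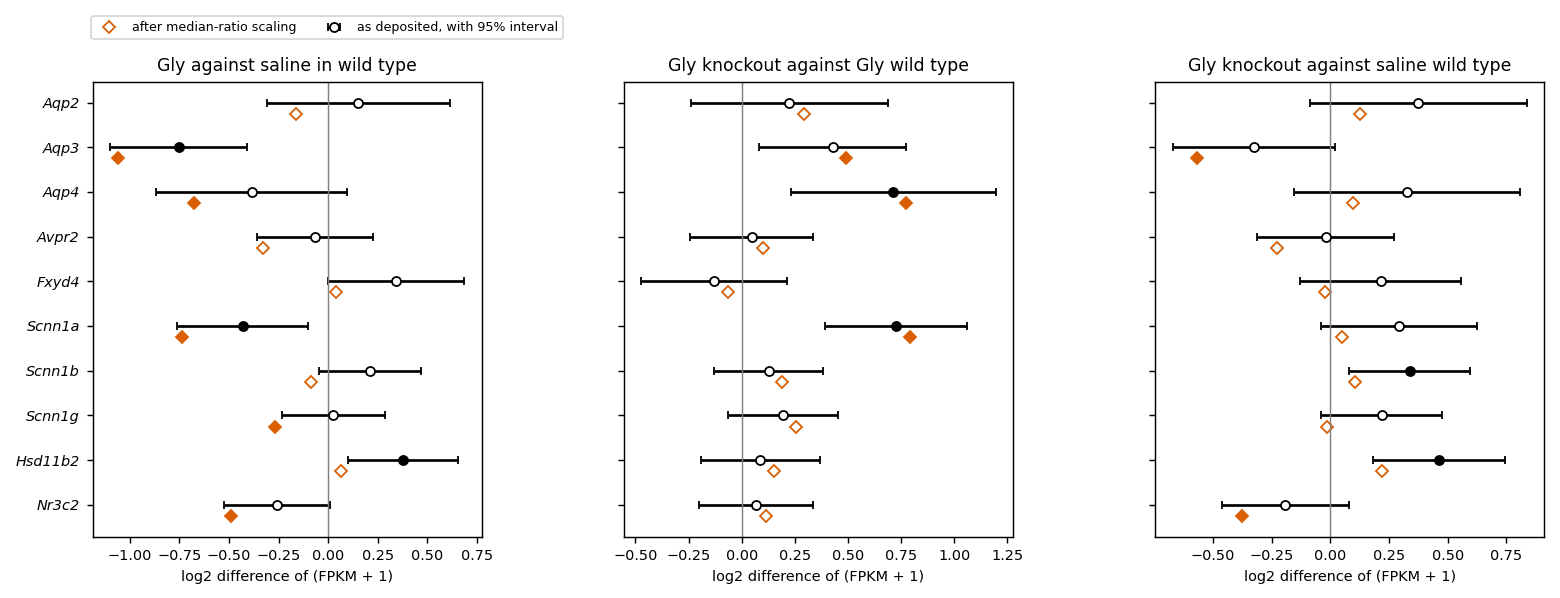
Log2 differences of (FPKM + 1), with 95% intervals, for the 10 transcripts in 3 comparisons; circles are values as deposited with their intervals, diamonds are values after median-ratio scaling, and filled symbols have an adjusted p under 0.05 by limma. In wild type the Aqp3 difference between Gly and saline is -0.75 as deposited and -1.06 after scaling, and that of Hsd11b2 is 0.38 as deposited and 0.07 after scaling.

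In knockout kidneys Gly was accompanied by a lower Nr3c2 as the 1 called member of 10, against 29.5% of features (23.7% higher and 5.72% lower, or 1593 and 1600 features after scaling and 3092 and 745 as deposited). After scaling 2 members were called in this comparison, both lower. Nr3c2 had 1.86, 2.66 and 3.06 FPKM as lowest, median and highest Gly knockout libraries, against 2.73, 4.10 and 4.67 FPKM in saline knockout libraries. Of the Gly libraries, 3 were below every saline library. Nr3c2 differed by -0.47 ± 0.13 on the log2 scale (SE), adjusted p = 0.0084 by limma, and all 24 refits without 1 library kept the call; without the 5 saline knockout libraries that lack Y-linked transcripts it was -0.07 (adjusted p = 0.89), with the remaining library assumed to vary like the others. Since all 6 Gly knockout libraries carry Y-linked transcripts, Gly and that difference cannot be told apart for Nr3c2 here. Aqp3 had 28.4, 40.4 and 85.7 FPKM in Gly knockout and 48.8, 54.9 and 61.1 FPKM in saline knockout libraries. Of the 6 Gly libraries, 5 were below every saline library and library 4 was above all of them, and the log2 difference was -0.40 (adjusted p = 0.077), or -0.60 without library 4 (adjusted p = 0.000277).

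Between genotypes under saline, Hsd11b2 was the 1 called member, against 10.6% of features (6.92% higher and 3.67% lower, or 686 and 704 features after scaling and 901 and 478 as deposited). It had 56.5, 78.3 and 94.3 FPKM as lowest, median and highest saline knockout libraries, against 40.5, 52.2 and 57.7 FPKM in saline wild-type libraries. Of the 6 knockout libraries, 5 were above every wild-type library, and library 4, the one that carries Y-linked transcripts, was the lowest. Hsd11b2 differed by 0.61 ± 0.14 on the log2 scale (SE), adjusted p = 0.0051 by limma, and 0.16 with adjusted p = 1.00 when library 4 alone stood for the knockout. Genotype and the lack of Y-linked transcripts cannot be told apart in this comparison. Scnn1a, Scnn1b and Scnn1g, with 5 of 6 knockout libraries above every wild-type library each, had log2 differences of 0.37, 0.33 and 0.31 and adjusted p of 0.16, 0.090 and 0.11. For each of these subunits, library 4 was the exception, at 33.7, 13.3 and 13.1 FPKM.

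The difference between the genotypes in response to Gly was called for 1 of 10 members, Hsd11b2, against 26.6% of features (6.28% higher and 20.3% lower, or 1369 and 1468 features after scaling and 818 and 2639 as deposited). Its interaction was -0.52 ± 0.19 (SE) on the log2 scale, adjusted p = 0.047 by limma: the Gly difference was -0.14 in knockout and 0.38 in wild type. The call held in 10 of 24 refits without 1 library, was lost after scaling (-0.36, adjusted p = 0.12), and without the 5 saline knockout libraries the value was -0.08 (adjusted p = 0.94). For Scnn1a the interaction was 0.36, with a 95% interval from -0.11 to 0.83 and adjusted p = 0.25, and for Aqp3 it was 0.36 with adjusted p = 0.28, so neither response was shown to differ between genotypes.

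Against saline wild type, which avoids the saline knockout libraries, Gly knockout kidneys had 2 members called, Hsd11b2 and Scnn1b, both higher, against 45.6% of features (38.9% higher and 6.72% lower, or 2197 and 2121 features after scaling and 5068 and 875 as deposited). Hsd11b2 had 58.1, 73.1 and 78.6 FPKM as lowest, median and highest Gly knockout libraries, against 40.5, 52.2 and 57.7 FPKM in saline wild-type libraries, without overlap. That is a log2 difference of 0.46 ± 0.14 (SE), adjusted p = 0.0077 by limma, and 0.22 with adjusted p = 0.16 after scaling. How many of all tested features separate in this way between these groups is not given here. The separation is therefore not shown to be unusual among them. Scnn1b had a log2 difference of 0.34 (adjusted p = 0.031) and 0.10 after scaling (adjusted p = 0.46); its call held in 19 of 24 refits without 1 library. After scaling Aqp3 and Nr3c2 were called lower instead, at -0.57 and -0.38.

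**Figure D4:**
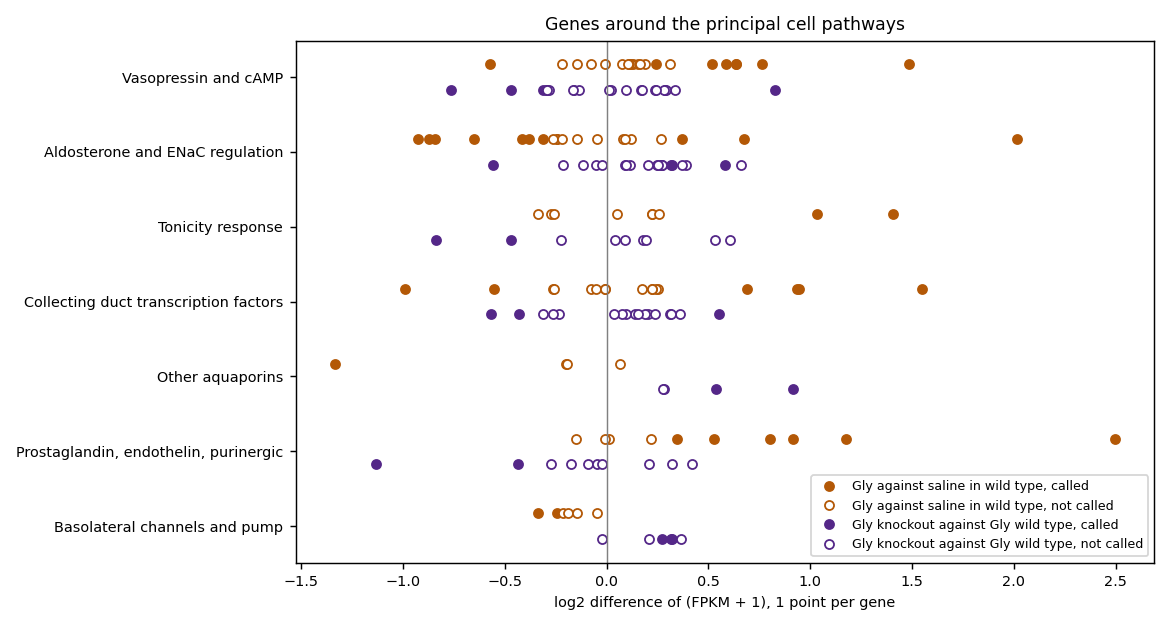
Log2 differences of (FPKM + 1) for the genes of 7 lists around these pathways, 1 point per gene, with filled points for those called, in Gly against saline in wild type and in Gly knockout against Gly wild type. Edn1 is the point farthest to the right, at 2.50, and Aqp11 the one farthest to the left, at -1.34.

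The genes around the members were read from lists chosen with earlier results of these data known, and their calls were set beside the 63.5% and 29.8% of all features. Aldosterone-responsive and ENaC-regulating genes were more often lower than higher after Gly in wild type: of 20 tested, 3 were higher and 8 lower, with a median log2 difference of -0.23, where 50.2% of all features were higher and 13.3% lower, and 2 were higher and 13 lower after scaling. Under Gly, 4 were higher and 1 lower in knockout against wild type, with a median of 0.25, and 7 were higher and 1 lower after scaling. Usp2, a deubiquitinase that acts on ENaC, differed by -0.84 between Gly and saline in wild type and by 0.58 between knockout and wild type under Gly. Its mean was 38.8 ± 3.10 FPKM in Gly knockout, 26.1 ± 6.03 in Gly wild-type, 48.6 ± 11.2 in saline knockout and 46.8 ± 6.05 in saline wild-type libraries (SD, n = 6 each). Prss8, the channel-activating protease prostasin, differed by -0.38 and 0.27 in these comparisons. Serpine2, a serine protease inhibitor, differed by 2.02 and -0.56, and the membrane protease St14 by 0.68 in Gly against saline wild type. Sgk1, the aldosterone-induced kinase, was picked after its values were seen: it had a median of 87.8 FPKM in Gly knockout, 46.5 in Gly wild-type, 134 in saline knockout and 85.8 in saline wild-type libraries, and differed by -0.87 (adjusted p = 0.0054) between Gly and saline in wild type and by 0.66 (adjusted p = 0.060) between knockout and wild type under Gly.

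Of 21 tested genes of vasopressin and cyclic AMP signalling, 7 were higher and 1 lower after Gly in wild type, where 50.2% of all features were higher. Their median log2 difference was 0.15, beside 0.26 over all features, and 6 were higher and 6 lower after scaling. In knockout against wild type under Gly, 2 were higher and 4 lower, beside 8.37% and 21.4% of all features. After scaling, 5 were higher and 3 lower in that comparison. The genes named from this list were picked by smallest p and do not stand for the list as a whole. Arrb2, which encodes the arrestin that turns off such receptors, differed by 1.48 between Gly and saline in wild type and by -0.76 between knockout and wild type under Gly, and Grk2, a receptor kinase, by 0.59 and -0.30. Arrb2 is also expressed in leukocytes. The 9 macrophage markers had median log2 differences of 3.18 and -1.02 in the same comparisons. The part of leukocytes in the values of Arrb2 or of other listed genes was not tested. Rab11a and Stx4a, which serve vesicle traffic, differed by 0.64 and -0.31 and by 0.76 and -0.47.

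Of 10 tested genes of the prostaglandin, endothelin and purinergic systems, 6 were higher and none lower after Gly in wild type. That share is near the 50.2% of all features called higher. In knockout against wild type under Gly, none were higher and 2 lower. After scaling these counts were 5 higher and 1 lower, and 1 higher and 2 lower. Edn1, endothelin 1, had 1.19 to 4.97 FPKM in Gly knockout, 3.85 to 11.5 in Gly wild-type, 0.252 to 0.727 in saline knockout and 0.215 to 0.909 in saline wild-type libraries. The Gly wild-type libraries lay above every saline wild-type library, with a log2 difference of 2.50 (adjusted p = 2.83e-10 by limma), and the difference between knockout and wild type under Gly was -1.13 (adjusted p = 0.000278). Ptger4, a prostaglandin E2 receptor, differed by 1.18 and -0.43. Other aquaporins gave 1 lower of 4 tested after Gly in wild type, Aqp11, an intracellular aquaporin, at -1.34, and 3 higher in knockout against wild type under Gly, Aqp11 at 0.91, Aqp1 at 0.54 and Aqp7 at 0.28; after scaling 3 of the 4 were lower in the first of these comparisons. Aqp11 had 10.3 to 13.2 FPKM in Gly knockout, 4.92 to 7.04 in Gly wild-type, 13.6 to 18.9 in saline knockout and 13.6 to 19.4 in saline wild-type libraries. Of the 17 tested collecting duct transcription factors, 4 were higher and 3 lower after Gly in wild type. After scaling, 4 were higher and 7 lower. From the higher side came Elf3 at 1.55, Hoxb7 at 0.95 and Hes1 at 0.94, while those on the lower side are not named here. In knockout against wild type under Gly, 1 of these factors was higher and 2 were lower, beside 8.37% and 21.4% of all features. Of 9 tonicity response genes 2 were higher, the amino acid transporter Slc38a2 at 1.03 and the heat shock gene Hspa1b at 1.41.

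Other marker lists gave a scale for these counts, with no test between lists. Of the 7 further principal cell markers, 2 were higher and 1 lower after Gly in wild type, with a median log2 difference of 0.17, and 2 were higher and 2 lower after scaling. Of 11 tested intercalated cell markers, which mark the acid-base cells of the collecting duct, 3 were higher and 4 lower after Gly in wild type, or none and 7 after scaling. Of 9 thick ascending limb markers 2 were higher and 2 lower, or 2 and 4 after scaling, and of 9 markers of the distal convoluted and connecting tubule 2 were higher and 7 lower, or 1 and 7 after scaling, with a median log2 difference of -0.63. The medians were -0.21 for intercalated cell and -0.01 for thick ascending limb markers, beside -0.02 for the 10 members.

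Gene likeness was described as the root mean square difference, in log2 units over 24 libraries, between values centred on each gene's own mean. For Aqp2 the nearest named genes were Hoxd9 (0.298), Apela (0.299), Cldn5 (0.301), Gstm2 (0.303) and Irx2 (0.304), against a spread of 0.43 for Aqp2 itself. For Scnn1g, with a spread of 0.24, they were Paip2b (0.136), Aplp2 (0.138), Ildr1 (0.142), Mpp2 (0.143) and Enpp5 (0.143). For Hsd11b2, with a spread of 0.32, they were Sema3b (0.157), Car2 (0.162), Ctf1 (0.169), Tcim (0.172) and B3gnt7 (0.173).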

How the data were processed

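Kidney RNA, isolated with Trizol, was made into 24 TruSeq libraries from 1 µg each, per the labels' protocols. The authors deposited 1 table of FPKM values for 28450 features, with a column per library, and groups and replicate numbers come from the sample titles. Bowtie 0.12.2 and the builds mm8 and mm9 are named, with no role, in the submitters' processing notes; how FPKM were computed, on which gene models and whether by strand is not given in the sources used here. FPKM hold no counts, so the depth is unknown and no interval that needs it is given. The labels do not say that libraries are separate animals beyond naming separate samples, so that p-values cover the spread among samples, which may be technical.

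Differences in log2(FPKM + 1) were tested two-sided with limma 3.58.1 under R 4.3.3, its prior variance following mean level, in 1 fit of all 24 libraries. Tested were 13020 features reaching 1 FPKM in 6 or more libraries, all 10 members among them. Fold changes on this scale understate changes of low features. P-values were adjusted by Benjamini-Hochberg over all tested features and called under 0.05. The fit was tested on simulated data with independent normal values and changes in few features. Unequal library quality and shifts over most features were not simulated. Alternatives were other scalings, pseudocounts, filters and fits, and leaving out libraries. Members and lists were chosen with earlier results of these data known. Genes beyond the members were those of smallest p in each list (5 in Gly against saline in wild type, 4 in knockout against wild type under Gly), the 5 nearest genes to 3 members, and Sgk1. Promoters came from the RefSeq table for GRCm38.p6. No 2 libraries held identical values. Some genes that the naming rule selects are not reported here.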

Additional observations from a re-analysis of the deposited data

Results flagged for a closer look

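In all, 7 library values among 68 groups of 6 libraries (10 transcripts and 7 ratios in 4 groups) lay far from the rest of their group, by a gap to the nearest library, taken over the group's range, above Dixon's 95% critical value; chance gives about 5% of groups. Aqp2 reached 391 FPKM and Aqp3 85.7 FPKM in Gly knockout library 4. In Gly wild-type library 1, Aqp2 was 244 FPKM, Fxyd4 was 50.5 FPKM, the ratio of Scnn1b to Scnn1g was 1.85 and the ratio of Aqp3 to Aqp2 was 0.143. Scnn1b was 13.3 FPKM in saline knockout library 4, the saline knockout library that carries Y-linked transcripts. For Hsd11b2 the interaction of genotype and Gly was -0.52 on the log2 scale, adjusted p = 0.047 by limma; the call held in 10 of 24 refits without 1 library, and the value was -0.36 (adjusted p = 0.12) after scaling and -0.08 (adjusted p = 0.94) without the 5 saline knockout libraries that lack Y-linked transcripts.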

How the results depend on the processing

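Under 36 settings, 2064 member values were computed, of which 1950 kept their side of the threshold, and 52 lost and 61 gained a call. The remaining 1 was reversed: Scnn1g in Gly against saline in wild type, at -0.27 after median-ratio scaling. Of the 1950, 90 changed sign without a call in either setting and are not counted as reversed. Counts of called members were, for Gly against saline in wild type (3), 5 with median-ratio scaling, 5 with quantile normalization and 6 with array weights. For Gly knockout against Gly wild type (2) they were 1 when only the compared groups were fitted and 1 without both Gly wild-type libraries 1 and 5, chosen after seeing the data. For Gly against saline in knockout (1) they were 2 with median-ratio scaling, 2 with quantile normalization, 3 with array weights, 0 with a filter of 5 FPKM, which removes Nr3c2 (2 at an unadjusted p under 0.05 by limma), 0 without the 5 saline knockout libraries (1 unadjusted), and 3 without Gly knockout library 4 with scaling, added after seeing the data. For saline knockout against saline wild type (1) they were 5 with only the compared groups, 7 with array weights, and 0 without the 5 saline knockout libraries (0 unadjusted). For the interaction (1) they were 0 by limma with median-ratio scaling (3 unadjusted), quantile normalization (2), no filter (1), the replicate block (1), without the 5 libraries (1), and with scaling without both Gly wild-type libraries (1) or Gly knockout library 4 (3), and 3 with array weights. For Gly knockout against saline wild type (2) they were 1 with no filter and 5 with array weights. With median-ratio scaling 2 were called there as well, but both were lower, where both were higher as deposited. Counts that moved less are not all listed, such as 3 with median-ratio scaling for Gly knockout against Gly wild type. Leaving out 1 library gave 2 to 4, 1 to 3, 1 to 2, 1 to 3, 0 to 1 and 1 to 3 in the 6 comparisons in that order. The cause of these changes was not tested, apart from the filter. Of 36 same-numbered pairs across groups, 7 had deviations correlated over 0.1 (-0.37 to 0.30), and 4 correlated best with their own number. These correlations showed no pairing by number but cannot exclude one. The replicate block moved the count for the interaction from 1 to 0. FPKM give no depth, so low values such as those of Nr3c2 have unknown counting error.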
